A study of Mus musculus with 24 samples.

Results

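Regulatory T cells (Tregs) without the insulin receptor were compared between 2 settings in which mice become hyperinsulinaemic: old age on normal chow, and youth on a diet rich in fat and sucrose (HFD). The comparison takes 11 of the 24 samples of the series, by their titles: the 6 knockout mice aged 52 weeks on chow (aged knockouts) against the 5 knockout mice on HFD for 13 weeks (HFD knockouts). Each sample is the Tregs of the visceral adipose tissue (VAT) of 1 male C57/Bl6 mouse, sorted by flow cytometry for CD45, CD4 and the YFP reporter of Foxp3. Expression of 96 genes was read on a custom nCounter panel (NanoString), which counts hybridised probes without amplification. Knockout mice carried the Foxp3-YFP-Cre allele, which drives Cre from the Foxp3 locus, with a floxed insulin receptor gene (Insr fl/fl). Control mice carried the same Cre allele alone, so Cre was present in every group, and per the labels this line can recombine outside Tregs. HFD mice ate a diet with 58 kcal% fat and sucrose from 3 to 16 weeks of age. Age and diet therefore both differ between the aged and the HFD mice, and their effects cannot be told apart here. Set beside them were 3 control mice aged 52 weeks on chow (aged controls), 4 control mice on HFD (HFD controls) and 3 knockout mice on chow for 13 weeks (young chow knockouts).

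VAT Tregs are a tissue population of Foxp3+ T cells, known for the transcription factor PPARgamma, the IL-33 receptor, a strong IL-10 and amphiregulin programme, and a role in restraining inflammation of fat and preserving insulin sensitivity. They accumulate in the fat of mice as these age and are typically depleted in diet-induced obesity. The insulin receptor is a tyrosine kinase that signals through IRS proteins, PI3K and AKT. In T cells, immediate early factors of the FOS, ATF3 and KLF families are induced within minutes to hours of receptor stimulation or stress, and also by tissue digestion.

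The aged knockouts and the HFD knockouts differed across most of the panel. Of the 96 genes, 51 passed at an adjusted p under 0.05 (limma on log2(signal + 1), Benjamini-Hochberg over 96 genes), which is 53.1% of those tested. They split into 22 higher genes (22.9%) and 29 lower genes (30.2%) in aged knockouts, and 59 genes had an unadjusted p under 0.05. The median log2 difference over all 96 genes was 0.09. For 31 genes (32.3%) the 6 aged and the 5 HFD mice did not overlap, with the aged mice above in 12 (12.5%) and below in 19 (19.8%). The signal of a sample is a share of its panel total, so a gene's direction depends on what the other genes did: the split was 34 higher and 26 lower when each sample was centred on its median gene (median of all genes 0.42), 27 and 28 when centred on 4 reference genes (0.31), and 36 and 22 when the 6 immediate early and stress genes were taken out of the total (0.68). There were 26 alternatives; 44 of the 51 genes were run in all of them, and 7 of low signal in 25, since 1 alternative filtered them out. None of the 51 changed sign where it was run. Of the 44, 35 passed in all 26, and of the 7, 4 passed in all 25.

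The panel totals recovered from the values were 21487 to 135141 counts in aged knockouts (median 48366.5) and 34986 to 224793 in HFD knockouts (median 99771), a difference of -0.88 in mean log2 total (exact permutation test, two-sided, p = 0.1645). They were 11446 to 23790 in young chow knockouts, 27591 to 94023 in aged controls and 24005 to 152648 in HFD controls. Pearson's r across genes between mice of a group was 0.81 to 0.955 in aged knockouts and 0.89 to 0.978 in HFD knockouts. Aged knockout replicate 1 had the lowest mean r with the other aged knockouts, 0.841, and replicate 6 the next, 0.86. Without both, 56 genes passed, 28 in each direction.

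InsR, the panel's name for the deleted gene, was at 2.23 to 18.6 signal units in aged knockouts (median 6.75) and at 8.57, 3.01, 8.25, 5.55 and 1.78 in HFD knockouts. The groups overlapped widely, with 18 InsR counts in all aged knockouts and 21 in all HFD knockouts, which per panel count is 1.33 times as many in aged knockouts (exact 95% interval 0.666 to 2.61, counting error only). In mice with an intact gene the signal was 513, 358 and 294 in aged controls and 104, 49.8, 89.1 and 125 in HFD controls, so every knockout mouse lay below every control mouse of its setting.

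Foxp3, the factor that defines the sorted lineage, had a signal of 172 to 1418 in aged knockouts (median 676) and of 3876, 3643, 3576, 3534 and 4603 in HFD knockouts. All aged mice lay below all HFD mice, although both were sorted on the YFP of the Foxp3 allele. The log2 difference was -2.82 (SE 0.43, adjusted p = 1.05e-05 from limma after Benjamini-Hochberg adjustment). Helios, a transcription factor of thymus-derived Tregs, ran from 173 to 763 in aged knockouts (median 227), against 4173, 4599, 3520, 4704 and 4877 in HFD knockouts. Its log2 difference of -4.05 (SE 0.34, adjusted p = 2.96e-09) had the smallest p of the panel. The highest aged value, in replicate 5, was still below the lowest HFD value. Lrrc32, which encodes GARP, the surface anchor of latent TGF-beta on Tregs, was at 15.6 to 312 in aged knockouts (median 208) and at 649, 1928, 1284, 1803 and 1854 in HFD knockouts, again without overlap. The log2 difference of Lrrc32 was -3.34 (adjusted p = 0.000601).

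**Figure D1:**
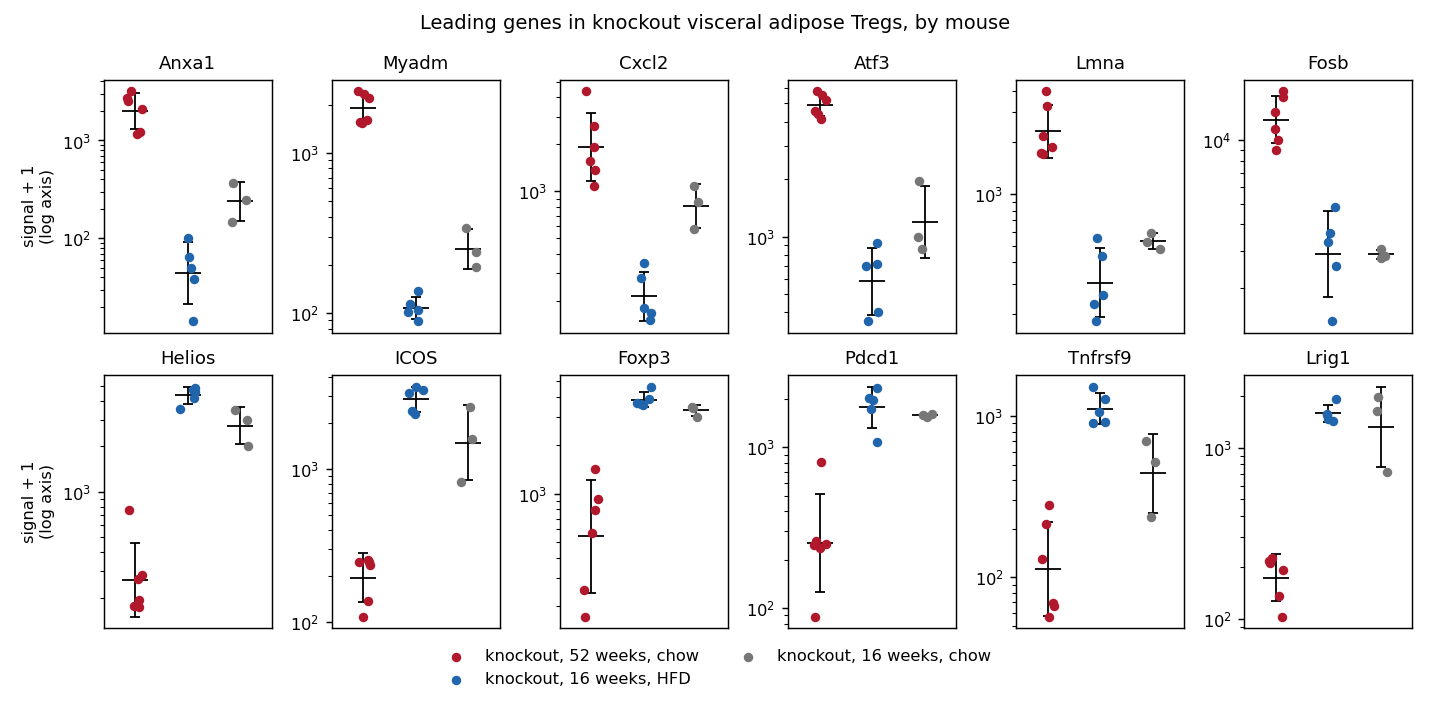
Signal of leading genes in each mouse, on a log axis with 1 added, in aged knockouts (6 mice), HFD knockouts (5 mice) and young chow knockouts (3 mice). Points are mice and bars are the geometric mean ± SD. Helios, ICOS and Foxp3 lie lower in all 6 aged knockouts than in any HFD knockout, and Anxa1, Myadm, Cxcl2 and Atf3 lie higher.

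CD25, the IL-2 receptor alpha chain, fell with a log2 difference of -1.52 (SE 0.47, adjusted p = 0.0084). Its signal was 172 to 2420 in aged knockouts (median 392) and 1501, 1327, 1315, 1132 and 1674 in HFD knockouts. Here 1 aged mouse, replicate 5, lay above all HFD mice and the other 5 lay below them. Taking the immediate early and stress genes out of the total left CD25 at -0.93 (adjusted p = 0.0602). Nrp1, a semaphorin receptor on thymus-derived Tregs, had a log2 difference of -1.42 and did not pass (adjusted p = 0.055). Of the 5 core Treg genes, 4 fell and none rose, where 30.2% fell over all genes. The median log2 difference of the 5 core genes was -2.82, against 0.09 over all genes. Their summed signal was 1121 to 4626 in aged knockouts (median 2003) and 10257 to 13543 in HFD knockouts. In a bulk sample, fewer cells of a type and less RNA per cell cannot be told apart.

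Of 6 activation and checkpoint receptors, 3 fell and none rose under the deposited scaling, with a median log2 difference of -1.79. Across the panel, 30.2% of genes fell and 22.9% rose. ICOS, a costimulatory receptor of the CD28 family, was at 108 to 256 in aged knockouts (median 243) and at 2407, 3450, 2297, 3284 and 3151 in HFD knockouts, with a log2 difference of -3.87 (SE 0.34, adjusted p = 3.15e-09). The highest aged value was far below the lowest HFD value. Pdcd1, which encodes the checkpoint receptor PD-1, was at 87.5 to 805 (median 248) in aged knockouts, against 1083, 1980, 2035, 1738 and 2334 in HFD knockouts, a log2 difference of -2.80 without overlap (adjusted p = 4.34e-06). Tnfrsf9, which encodes the costimulatory receptor 4-1BB, was at 56.1 to 280 (median 98.5) in aged knockouts and at 909, 1278, 1054, 918 and 1521 in HFD knockouts. Its groups did not overlap either, and the log2 difference was -3.30 (adjusted p = 6.13e-06). The other 3 did not pass: Cd69, an early activation marker, at -0.77, Klrg1, a marker of terminally differentiated effector cells, at 0.52, and the hyaluronan receptor Cd44 at 1.60 (adjusted p = 0.105, 0.545 and 0.068). Cd44 passed when centred on the sample median (1.94, adjusted p = 0.0254) or on the reference genes (1.83, adjusted p = 0.047), without the immediate early and stress genes in the total (2.19, adjusted p = 0.0188), and without aged replicates 1 and 6 (2.32, adjusted p = 0.0102).

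Satb1, a chromatin organiser needed for the Treg programme in the thymus, was at 13.4 to 233 in aged knockouts (median 128) and at 712, 1026, 640, 1081 and 1795 in HFD knockouts, a log2 difference of -3.53 (adjusted p = 2.06e-05). Lrig1, a negative regulator of receptor tyrosine kinases, was at 102 to 225 (median 202) in aged knockouts and at 1555, 1563, 1480, 1933 and 1436 in HFD knockouts, a log2 difference of -3.18 (adjusted p = 5.75e-07). Neither gene's groups overlapped. Tcra, the T cell receptor alpha chain, was at 7.43 to 698 in aged knockouts (median 266) and at 443, 2725, 1526, 2167 and 656 in HFD knockouts, and its log2 difference of -2.95 passed (adjusted p = 0.00812) although 2 of the HFD mice lay within the aged range.

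Genes of the VAT Treg programme were not of one direction. Of 13 measured members, 2 rose, 5 fell and 6 did not pass, with a median log2 difference of -0.34 that became 0.24 when the immediate early and stress genes were taken out of the total. Over all 96 genes, 22.9% rose and 30.2% fell. Il1rl1, the IL-33 receptor ST2, was at 240 to 1231 in aged knockouts (median 470) and at 712, 1713, 2313, 2079 and 1860 in HFD knockouts, and fell by 1.74 on the log2 scale (adjusted p = 0.0015). HFD replicate 1 was the one HFD mouse within the aged range. Gata3, a driver of ST2 expression, was at 140 to 1653 (median 402) in aged knockouts, against 1498, 1353, 1523, 1531 and 1315 in HFD knockouts. Its log2 difference of -1.54 passed (adjusted p = 0.00912), with 1 aged mouse above every HFD mouse and another among them, and did not pass without the immediate early and stress genes in the total (-0.95, adjusted p = 0.056). RoRa, a nuclear receptor of tissue Tregs, differed by -1.99 (adjusted p = 0.00679).

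Areg, which encodes the repair factor amphiregulin, fell by 2.01 on the log2 scale (adjusted p = 0.000182): 101 to 675 in aged knockouts (median 246) and 978, 999, 701, 934 and 1117 in HFD knockouts. The aged and the HFD mice did not overlap. Dgat1, which catalyses the last step of triglyceride synthesis, was at 329 to 2025 in aged knockouts (median 660) and at 2498, 3814, 4180, 4320 and 4073 in HFD knockouts, also without overlap (log2 difference -2.27, adjusted p = 0.000601). Pparg, the defining factor of VAT Tregs, was at 79.3 to 130 (median 97.1) in aged knockouts, against 31.4, 123, 51.2, 56.5 and 38.7 in HFD knockouts. Its log2 difference of 0.91 just missed the threshold (adjusted p = 0.0513) and passed under both centrings (1.25, adjusted p = 0.00492, on the sample median and 1.14, adjusted p = 0.0425, on the reference genes). Without HFD replicate 2, the HFD mouse with the highest Pparg, the difference was 1.21 (adjusted p = 0.0114). Irf4, a factor of effector Tregs, differed by 0.16.

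The 2 members that rose were Ccr2, the receptor for the chemokine CCL2, and Cxcl2, which is described with the inducible genes. Ccr2 was at 202 to 706 in aged knockouts (median 419) and at 117, 176, 145, 195 and 176 in HFD knockouts. All aged mice lay above all HFD mice, with a log2 difference of 1.26 (adjusted p = 0.0206). It did not pass without aged replicate 6 (1.09, adjusted p = 0.0529).

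Among 10 suppressive mediators, 4 fell, none rose and 6 did not pass, with a median of -0.52, which was 0.06 without the immediate early and stress genes in the total. The share of falling genes over the whole panel was 30.2%. TGFb, a panel name that fits several TGF-beta genes, was at 463 to 1294 in aged knockouts (median 563) and at 1975, 2892, 2747, 2553 and 3283 in HFD knockouts (log2 difference -1.97, adjusted p = 1.64e-05). Ebi3, a subunit of IL-35 and IL-27, was at 43.3 to 65.2 (median 55.7) in aged knockouts and at 166, 149, 117, 224 and 172 in HFD knockouts (-1.59, adjusted p = 0.000152). Neither overlapped between the groups, and Areg and Lrrc32 above were the other falling members. IL-10, the suppressive cytokine for which VAT Tregs are known, was at 44.0 to 135 (median 75.1) in aged knockouts, against 71.5, 95.2, 137, 88.9 and 141 in HFD knockouts. Most of these values overlapped, and the difference of -0.34 did not pass (SE 0.36, adjusted p = 0.414). Granzymes GzmA and GzmB, the pore-forming Perforin, and the proprotein convertases Furin and Pcsk1 did not pass either, with log2 differences from -0.70 (Pcsk1) to 0.11 (Perforin).

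**Figure D2:**
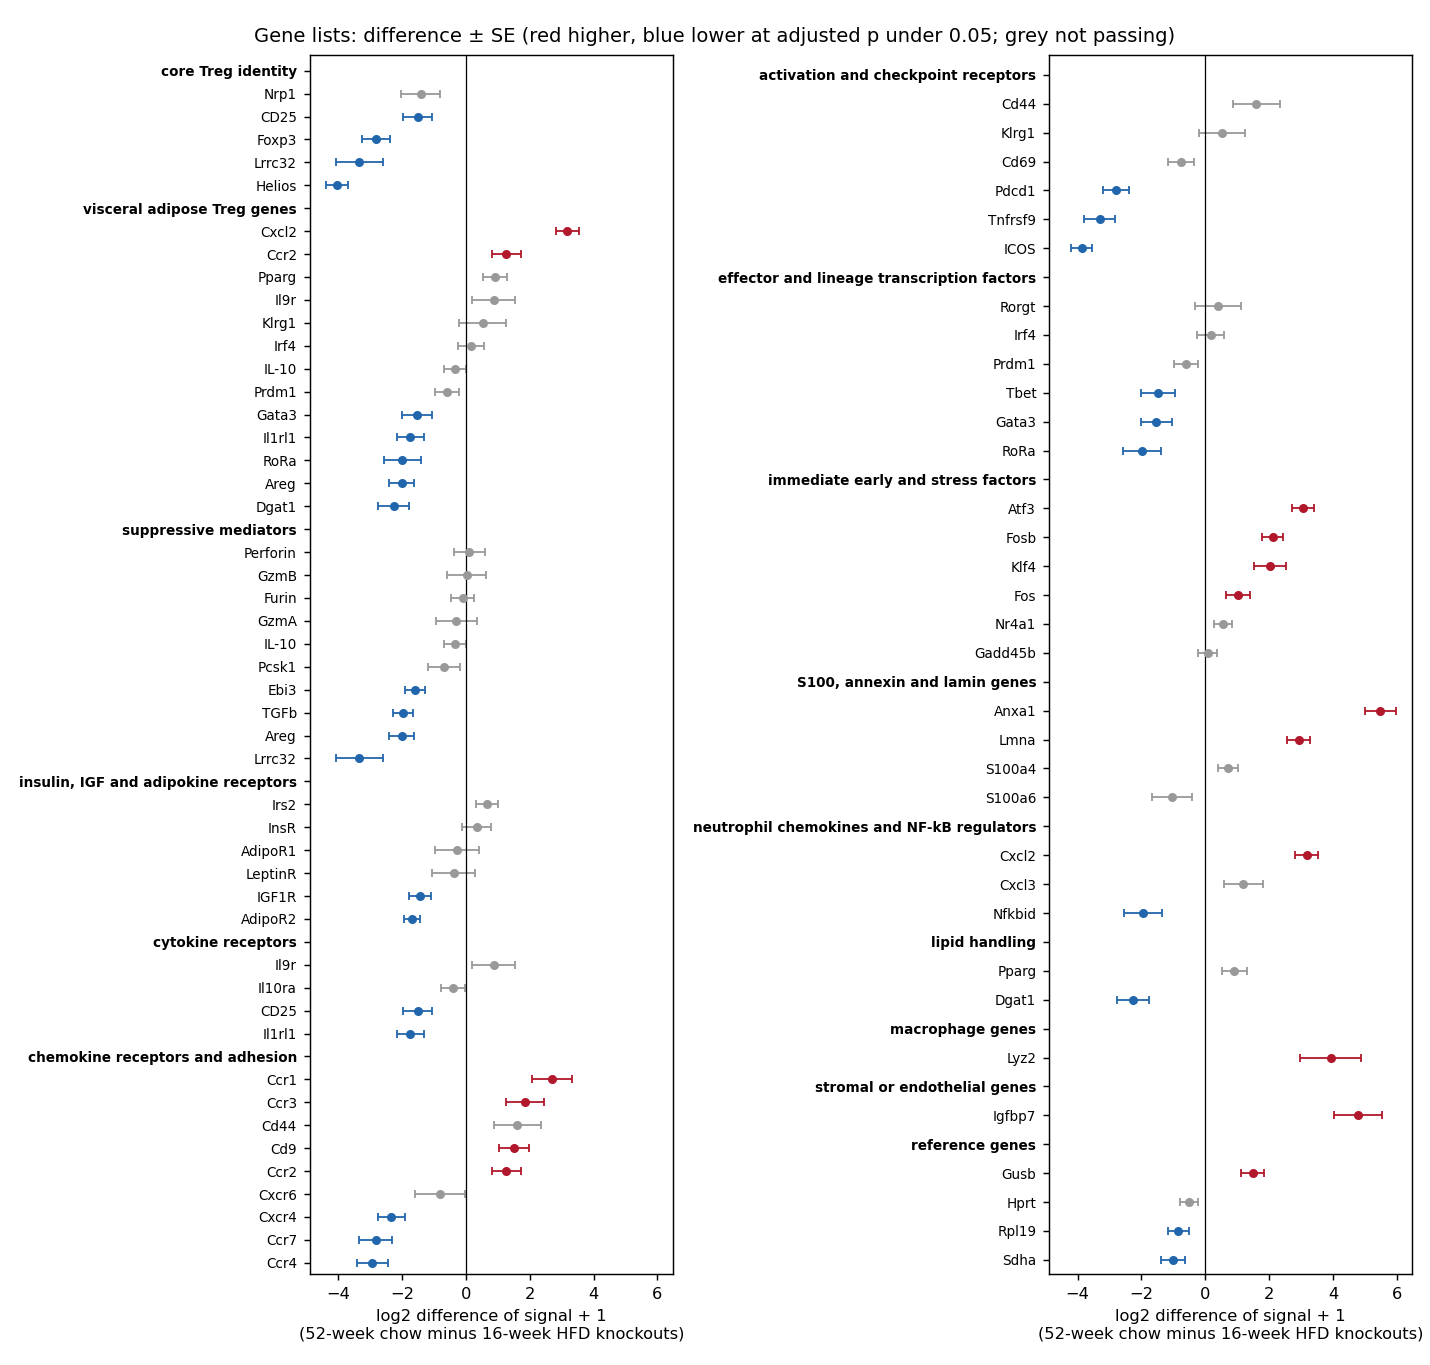
Log2 difference of each member of the gene lists, aged knockouts minus HFD knockouts, with bars for the SE, red or blue points for genes that passed, grey for those that did not, and 1 member of the chemokine receptor list not drawn. Under the deposited scaling, core Treg genes, activation receptors and suppressive mediators have no passing member above 0, and the immediate early and stress genes have none below 0.

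Receptors for insulin-like and fat-derived hormones gave 2 falling genes of 6 and none that rose under the deposited scaling. This count of falling genes is near the 30.2% that fell over all 96 genes. AdipoR2, a receptor for adiponectin, was at 150 to 237 in aged knockouts (median 195) and at 449, 649, 899, 656 and 569 in HFD knockouts (log2 difference -1.69, SE 0.26, adjusted p = 1.16e-05). IGF1R, the receptor tyrosine kinase closest to the insulin receptor, was at 27.9 to 87.7 (median 74.0) in aged knockouts, against 157, 193, 119, 180 and 221 in HFD knockouts (-1.44, adjusted p = 0.00122). Both were lower in every aged mouse than in any HFD mouse. AdipoR1, the other adiponectin receptor, was at -0.28, LeptinR at -0.38, InsR at 0.33 and Irs2, an adaptor downstream of both kinases, at 0.65 (adjusted p = 0.745, 0.645, 0.545 and 0.107). The median of the 6 was -0.33, and it was 0.01 when centred on the sample median and 0.20 without the immediate early and stress genes in the total. Irs2 passed under both of these scalings (0.99, adjusted p = 0.0192, and 1.24, adjusted p = 0.00404).

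Of 4 cytokine receptors, CD25 and Il1rl1 fell, and the IL-10 receptor chain Il10ra (-0.41) and Il9r, the IL-9 receptor (0.87), did not pass (adjusted p = 0.334 and 0.259). Of 6 effector and lineage factors, Gata3, RoRa and the Th1 factor Tbet fell and none rose. For both lists, the share of falling genes to set beside them is the 30.2% of the whole panel. Tbet was at 23.1 to 325 in aged knockouts (median 68.2) and at 229, 279, 249, 230 and 138 in HFD knockouts, a log2 difference of -1.49 (adjusted p = 0.0205) that did not pass when aged replicate 6 was left out (-1.15, adjusted p = 0.059) or under centring on the sample median (-1.15, adjusted p = 0.0595). Without the immediate early and stress genes in the total, only 1 of the 6 fell. Irf4, Prdm1, which encodes Blimp-1, and Rorgt, the panel's name for the Th17 factor, did not pass. Rorgt had 31 to 35 counts in 7 of these 11 mice at totals that differed widely, so its low values may not follow its level.

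Chemokine receptors split by receptor. Ccr4, a receptor for CCL17 and CCL22, was at 16.5 to 139 in aged knockouts (median 55.9) and at 477, 458, 371, 369 and 447 in HFD knockouts (log2 difference -2.93, adjusted p = 2.71e-05). Ccr7, which guides cells to lymph nodes, was at 147 to 690 (median 229) in aged knockouts and at 2558, 1257, 1510, 1941 and 3458 in HFD knockouts (-2.83, adjusted p = 7.15e-05). Neither overlapped between the groups. Cxcr4, the CXCL12 receptor, was at 505 to 2243 in aged knockouts (median 1138), against 2192, 8167, 6818, 8632 and 6225 in HFD knockouts, and the low value of HFD replicate 1 was the only one within the aged range (-2.34, adjusted p = 7.67e-05).

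In the other direction, Ccr1, a receptor for inflammatory chemokines, was at 35.7 to 437 (median 93.4) in aged knockouts and at 8.57, 30.1, 34.7, 18.5 and 4.45 in HFD knockouts. All aged values were higher, the nearest by little (2.69, adjusted p = 0.00122). The tetraspanin Cd9 rose by 1.52 (adjusted p = 0.00915) and Ccr3, the eotaxin receptor, by 1.85 (adjusted p = 0.0105). Ccr3 had 3 to 18 counts in aged knockouts and 2 to 5 in HFD knockouts, and did not pass with only the compared groups in the fit (adjusted p = 0.0509) or with voom (adjusted p = 0.0505). With Ccr2, these make 4 rising and 4 falling genes of 10, where 22.9% rose and 30.2% fell over all 96 genes. Cxcr6, the CXCL16 receptor, and Cd44 were the members that did not pass.

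The genes with the largest rises were Anxa1, Igfbp7, Myadm and Lyz2. Anxa1, which encodes the phospholipid-binding, inflammation-limiting annexin A1, was at 1158 to 3180 in aged knockouts (median 2327) and at 62.9, 49.1, 101, 38.0 and 13.3 in HFD knockouts, a log2 difference of 5.49 (SE 0.48, adjusted p = 3.15e-09). The HFD mice had 22 to 61 counts, which did not follow their totals, so the size of this rise is less certain than its direction. Myadm, a membrane-raft protein, was at 1526 to 2426 (median 1912) in aged knockouts, against 100, 112, 135, 104 and 88.1 in HFD knockouts (4.14, adjusted p = 3.26e-09). Lmna, which encodes the nuclear lamins A and C, was at 1715 to 3975 (median 2022) in aged knockouts and at 226, 436, 554, 257 and 180 in HFD knockouts (2.93, adjusted p = 5.02e-07). In all 3 genes the aged mice lay clear above the HFD mice. Of the calcium-binding S100 genes, S100a4 was at 0.70 and S100a6 at -1.04, and neither passed (adjusted p = 0.0602 and 0.155). S100a4 did pass when centred on the sample median (1.03, adjusted p = 0.00492) or on the reference genes (0.92, adjusted p = 0.042) and without the immediate early and stress genes in the total (1.29, adjusted p = 0.000777), which made 3 higher genes of the 4 S100, annexin and lamin genes in place of 2.

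Of 6 immediate early and stress genes, 4 rose and none fell, with a median log2 difference of 1.52. Panel-wide, 22.9% of genes rose. Atf3, a bZIP factor induced by stress, was at 4138 to 5791 in aged knockouts (median 4888) and at 703, 718, 919, 359 and 403 in HFD knockouts (3.07, SE 0.34, adjusted p = 1.27e-07). Fosb, an AP-1 subunit, was at 9010 to 16998 (median 12453) in aged knockouts and at 3627, 2547, 4810, 3285 and 1399 in HFD knockouts (2.11, adjusted p = 1.69e-05). Klf4, a zinc finger factor, was at 5119 to 10725 (median 9486) in aged knockouts and at 2675, 3036, 916, 2728 and 1956 in HFD knockouts (2.02, adjusted p = 0.00166). None of the 3 overlapped between the groups. Fos, the AP-1 subunit closest to Fosb, rose by 1.02 (adjusted p = 0.022) with overlap, since HFD replicate 1 had 12725 against 5366 to 17223 in aged knockouts (median 13920), and its call was lost in 5 of 26 alternatives. Nr4a1, an orphan nuclear receptor that reports T cell receptor signals, and Gadd45b, a stress-response gene, did not pass (0.56 and 0.07, adjusted p = 0.0885 and 0.845), although Nr4a1 passed when centred on the sample median (0.90, adjusted p = 0.0106) and without these 6 genes in the total (1.15, adjusted p = 0.00192). Together the 6 genes took 29.2% to 54.5% of the panel total in aged knockouts (median 47.0%) and 10.7% to 23.7% in HFD knockouts (median 14.6%).

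Cxcl2, a neutrophil-attracting chemokine induced through NF-kB and also on the VAT Treg list, was at 1090 to 4379 in aged knockouts (median 1750) and at 177, 280, 348, 149 and 167 in HFD knockouts. The lowest aged mouse was above the highest HFD mouse (3.18, SE 0.36, adjusted p = 1.27e-07). The related Cxcl3 did not pass (1.19, adjusted p = 0.102), and Nfkbid, a nuclear NF-kB regulator, fell by 1.95 (adjusted p = 0.00812), so the 3 genes of this list gave 1 in each direction. With the immediate early and stress genes out of the total, the list gave 2 higher and 0 lower: Cxcl3 passed (1.78, adjusted p = 0.0121) and Nfkbid did not (-1.36, adjusted p = 0.0574). The promoters of Cxcl2 and Atf3 are shown because these were the leading inducible genes that rose. Each window runs from 250 bases before to 50 after the gene's start, from RefSeq on GRCm38.p6, in lower case with the motif match in capitals. The Cxcl2 window, chr5:90903649-90903948 on the plus strand, holds 1 match to an NF-kB motif (GGGA, any base, TT, any base, CC), which 394 of 32851 mouse promoter windows hold on either strand (1.199%). The Atf3 window, chr1:191183284-191183583 on the minus strand, holds 1 match to TGACGT, a half-site of the cyclic AMP response element, searched on both strands and found here on the opposite one, which 2468 of the windows hold (7.513%).
Cxcl2: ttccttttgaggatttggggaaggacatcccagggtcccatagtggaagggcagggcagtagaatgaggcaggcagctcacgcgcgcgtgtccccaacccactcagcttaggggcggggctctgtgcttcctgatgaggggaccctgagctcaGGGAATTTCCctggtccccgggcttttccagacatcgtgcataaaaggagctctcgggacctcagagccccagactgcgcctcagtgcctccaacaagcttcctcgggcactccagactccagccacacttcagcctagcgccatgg
Atf3: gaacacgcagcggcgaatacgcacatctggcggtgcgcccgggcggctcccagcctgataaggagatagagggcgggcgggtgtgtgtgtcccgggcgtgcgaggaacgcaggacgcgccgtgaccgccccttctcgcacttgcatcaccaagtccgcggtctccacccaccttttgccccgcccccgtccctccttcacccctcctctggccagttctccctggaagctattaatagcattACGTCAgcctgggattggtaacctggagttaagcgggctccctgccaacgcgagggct
Of the genes that rose, 20 of 22 had a promoter window, and 3 of them held the NF-kB motif and 3 the half-site. Of those that fell, 20 of 29 had a window, with 2 and 4. A match describes these letters only.

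Other genes that passed are given by role. Rgs2, a brake on G protein signals, fell by 1.27 (adjusted p = 0.00419), and Gramd3, a GRAM-domain protein, differed by -3.31 (adjusted p = 0.00173). Nr1d1, which encodes the clock repressor REV-ERBalpha, rose by 1.77 (adjusted p = 0.00787), and Ptafr, the receptor for platelet-activating factor, by 2.59 (adjusted p = 0.00316). Ptafr had 8 to 39 counts in aged knockouts and 4 to 13 in HFD knockouts, which did not follow the panel totals, so the size of its rise is uncertain. Tmem176a, a membrane protein, rose by 2.40 (adjusted p = 0.0015), and the matrix protease Mmp9 by 1.83 (adjusted p = 0.0333). Mmp9 had 10 to 20 counts in aged knockouts and 3 to 10 in HFD knockouts, and its call was lost in 6 of 25 alternatives. Lgals3, which encodes galectin 3, passed at 2.80 (adjusted p = 0.000961) from 62 counts in all aged knockouts and 9 in all HFD knockouts, which per panel count is 10.7 times as many in aged knockouts (exact 95% interval 5.26 to 24.4, counting error only). Plin2, a lipid droplet protein, was at 1.86 and did not pass (adjusted p = 0.0517). The reference genes were not stable under the deposited scaling: Gusb rose by 1.48 (adjusted p = 0.00147), Sdha fell by 1.01 (adjusted p = 0.0243) and Rpl19 by 0.84 (adjusted p = 0.0285), while Hprt did not pass (-0.52, adjusted p = 0.114). Rpl19 lost its call in 12 of 26 alternatives and Sdha in 5, among them centring on the sample median (-0.68, adjusted p = 0.176, for Sdha).

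Few genes of the short marker lists used here for cells other than Tregs are on the panel. It holds 1 of 7 for macrophages, 1 of 5 for stromal or endothelial cells and 1 of 3 for T cells at large. Th17, Th1 and group 2 innate lymphoid cells have 1 of 2 each, and neutrophils, adipocytes, B cells and NK cells have none. The macrophage and the stromal marker were both higher in aged knockouts. Ccr1, Ccr2, Lgals3, Ptafr, Mmp9 and Tmem176a, which also rose, were on none of these marker lists, and their cell source was not tested. Lyz2, the lysozyme of myeloid cells, was at 198, 1549, 411, 961, 1871 and 6875 in aged knockout replicates 1 to 6 and at 48.6, 282, 127, 30.5 and 30.7 in HFD knockouts (3.93, SE 0.95, adjusted p = 0.0014). The groups overlapped by a single pair, and replicate 6, the highest for Lyz2, was the lowest of the aged mice for Foxp3. Igfbp7, an IGF-binding protein of vascular and stromal cells, was at 2001 to 8571 (median 5159) in aged knockouts and at 114, 208, 294, 251 and 95.2 in HFD knockouts, without overlap (4.78, SE 0.75, adjusted p = 1.39e-05).

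Over the 6 aged knockouts, neither Lyz2 nor Igfbp7 followed Foxp3 in a single order. For Lyz2 it was replicate 5, high for both Foxp3 (931) and Lyz2 (1871), that broke the order. In the other aged mice Lyz2 was higher the lower Foxp3 was, but setting replicate 5 aside was chosen after its values were seen. Foxp3 was at 1418, 253, 787, 565, 931 and 172 in aged knockout replicates 1 to 6, and Igfbp7 at 4376, 5941, 8571, 8202, 2001 and 3622. Lyz2 was at 198, 1549, 411, 961, 1871 and 6875 in the same order of replicates. Replicate 1 had the highest Foxp3 of the aged mice, the lowest Lyz2 and the lowest Tcra. The defining Treg markers on the panel, 3 of 4, were present in all 11 mice, with Foxp3 never under 172. The lower Treg genes, the higher immediate early genes and these 2 markers moved together between the groups, and the part of other cells in the differences was not tested.

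**Figure D3:**
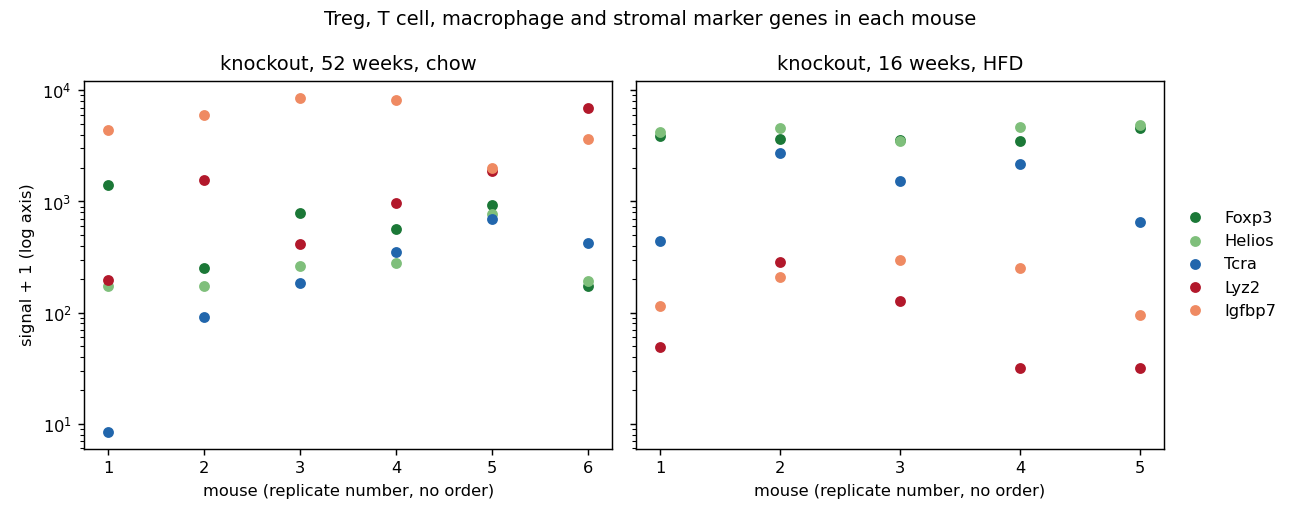
Signal of Foxp3, Helios, Tcra, Lyz2 and Igfbp7 in each aged knockout (left) and HFD knockout (right), on a log axis. Lyz2 and Igfbp7 are higher in aged mice, with 1 overlapping pair for Lyz2 and none for Igfbp7, and Foxp3 is lower in all 6 aged mice.

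The same comparison in mice with an intact receptor, 3 aged controls against 4 HFD controls, gave 36 genes past the threshold (37.5%), 24 higher (25%) and 12 lower (12.5%), with 46 at an unadjusted p under 0.05. The 2 control groups did not overlap for 41.7% of the genes. The split turned to 35 higher and 4 lower when centred on the reference genes and to 19 higher and 22 lower when centred on the sample median. Of the genes that passed, 23 did so in both genotypes, 45.1% of those of knockouts and 63.9% of those of controls, and all 23 had the same sign, 11 higher and 12 lower. Over all 96 genes, 37.5% passed in controls, to be set beside the 45.1%, and 53.1% in knockouts, beside the 63.9%. With direction left aside, the number of shared genes is thus not far above what these shares alone would give. By direction it was further above them. Of the 22 higher genes of knockouts, 11 also passed as higher in controls, where 25% of all genes did. Of the 29 lower genes, 12 also passed as lower in controls, where 12.5% of all genes did. Across the 96 genes the log2 differences of the 2 genotypes correlated at r = 0.702, as a description over genes, which are not replicates. Shared genes included Anxa1, which differed by 5.49 in knockouts and 3.93 in controls, Cxcl2 (3.18 and 3.98), Lmna (2.93 and 3.66), Atf3 (3.07 and 2.35), Lrig1 (-3.18 and -3.19) and Ccr7 (-2.83 and -3.64).

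**Figure D4:**
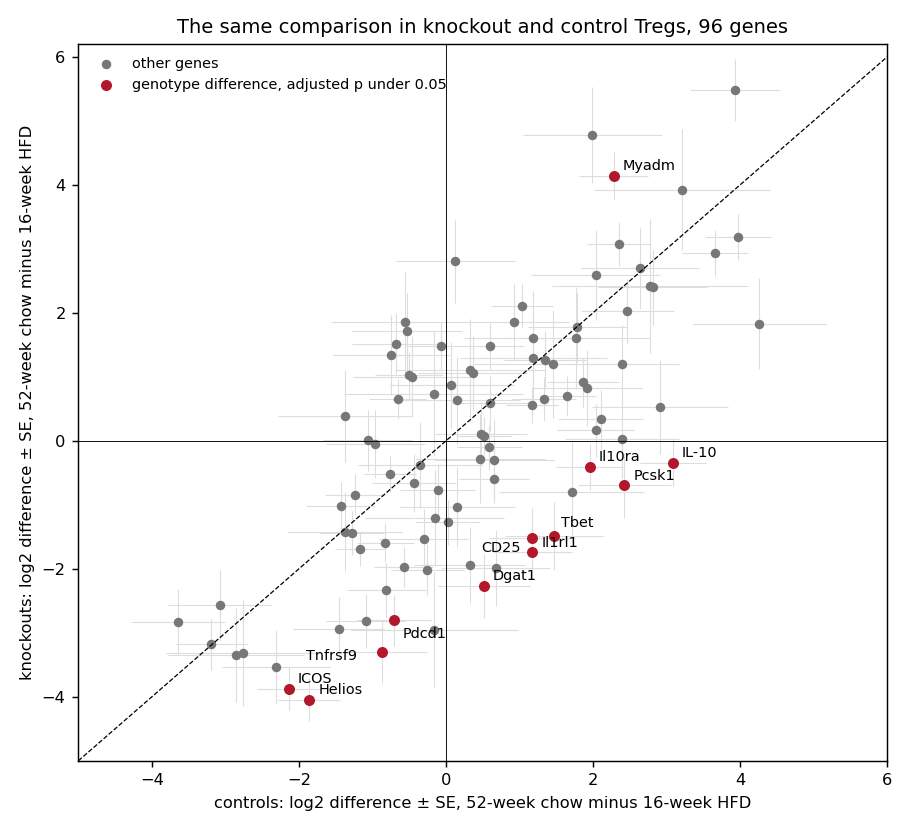
Log2 difference between aged and HFD mice for each gene in knockouts and in controls, with bars for the SE and red points where the genotype difference passed. IL-10 lies near 0 in knockouts and at 3.09 in controls, and Myadm is the only red point above the dashed line of equal differences.

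The difference between the genotypes was then tested itself, as the knockout difference minus the control difference. It passed for 12 genes (12.5%), 1 higher (1.04%) and 11 lower (11.5%), and 31 had an unadjusted p under 0.05. This count was the least stable: it was 5 without aged control replicate 2 or 3, 21 without aged knockout replicate 1 or 5, and 8 with 7 higher and 1 lower under centring on the sample median, of which 2, IL-10 and Myadm, were among the 12. Over 33 alternatives, IL-10 kept its call in all 33. Helios, Il10ra and Il1rl1 lost theirs in 1, Pcsk1 in 2, CD25 in 3, and Dgat1 and Tbet in 4. ICOS lost its call in 11, Pdcd1 in 12, Myadm in 13 and Tnfrsf9 in 14 of the 33.

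IL-10 was at 44.0 to 135 in aged knockouts (median 75.1) and at 71.5, 95.2, 137, 88.9 and 141 in HFD knockouts. In controls it was at 303, 439 and 305 in aged mice and at 22.4, 38.7, 61.2 and 45.9 in HFD mice. The aged controls thus lay above every other mouse of the 4 groups. The log2 difference was -0.34 in knockouts and 3.09 in controls, and the difference of these was -3.43 (SE 0.58, adjusted p = 0.000503 from limma after Benjamini-Hochberg adjustment). Il10ra, the receptor chain for the same cytokine, was at 129 to 326 in aged knockouts (median 194) and at 226, 282, 267, 282 and 257 in HFD knockouts, but at 594, 827 and 993 in aged controls and at 198, 87.9, 302 and 321 in HFD controls (genotype difference -2.36, adjusted p = 0.0133).

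Il1rl1 differed by -1.74 in knockouts, while in controls its difference of 1.17 did not pass (adjusted p = 0.0924), with 1663, 4962 and 3161 in aged controls and 1652, 1109, 822 and 1997 in HFD controls. The genotype difference of Il1rl1 was -2.91 (adjusted p = 0.0133). CD25 was lower in most aged knockouts, while all aged controls, at 1485, 2786 and 3610, were above the HFD controls, at 1071, 1034, 904 and 1438 (genotype difference -2.68, adjusted p = 0.0256). Dgat1 differed by -2.27 in knockouts and by 0.51 in controls, with 1782, 3202 and 2724 in aged controls and 3245, 2700, 335 and 3172 in HFD controls, and had a genotype difference of -2.78 (adjusted p = 0.0256). The positive sign of Dgat1 in controls depends on HFD control replicate 3, at 335, far below the other HFD controls. Without single mice, the genotype difference of Dgat1 ran from -3.08 to -1.99. Tbet (-2.95, adjusted p = 0.0256) and Pcsk1 (-3.12, adjusted p = 0.016) also passed, Tbet being at 452, 208 and 397 in aged controls and at 79.4, 108, 144 and 171 in HFD controls. The groups of Tbet did not overlap in controls.

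Helios and ICOS were lower in aged mice of both genotypes. When centred on the sample median, the genotype difference passed for neither (Helios -1.35, adjusted p = 0.1, and ICOS -0.90, adjusted p = 0.329). This was the only one of 33 alternatives in which Helios lost its call, while ICOS lost its call in 11. Helios was at 986, 1035 and 783 in aged controls and at 3854, 3772, 2425 and 3664 in HFD controls, for a difference of -4.05 in knockouts and -1.86 in controls (genotype difference -2.19, adjusted p = 0.0133). ICOS was at 332, 458 and 452 in aged controls and at 2023, 2184, 989 and 2455 in HFD controls, for -3.87 in knockouts and -2.14 in controls (genotype difference -1.73, adjusted p = 0.0400). Pdcd1, at -2.80 in knockouts, and Tnfrsf9, at -3.30, had genotype differences of -2.09 (adjusted p = 0.0371) and -2.44 (adjusted p = 0.0400), with control differences of -0.71 and -0.87 that did not pass. Foxp3 was at 1462, 1633 and 2257 in aged controls and at 4878, 4986, 2126 and 3798 in HFD controls. Its control difference of -1.09 did not pass (adjusted p = 0.113), and the genotype difference of Foxp3 did not either (-1.72, adjusted p = 0.0892). Myadm rose in both genotypes, at 1025, 1173 and 643 in aged controls and at 177, 162, 582 and 75.0 in HFD controls (genotype difference 1.87, adjusted p = 0.0400).

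**Figure D5:**
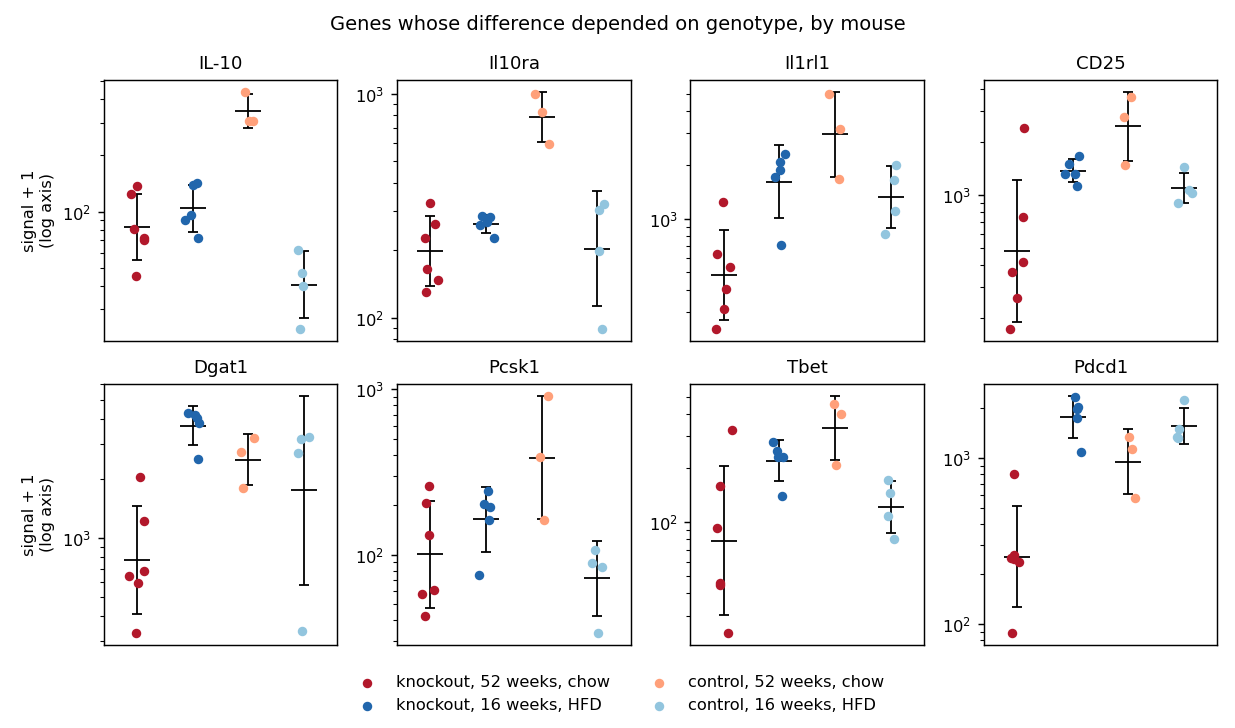
Signal of genes with a passing genotype difference in aged knockouts, HFD knockouts, aged controls and HFD controls, on a log axis, with bars for the geometric mean ± SD. IL-10 and Il10ra are high in the 3 aged controls only.

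The markers of other cells were tested the same way. Lyz2 was at 4806, 2937 and 132 in aged controls and at 126, 33.4, 453 and 158 in HFD controls (control difference 3.21, adjusted p = 0.0387), with a genotype difference of 0.72 that did not pass (adjusted p = 0.796). Igfbp7 was at 987, 202 and 2143 in aged controls and at 1151, 260, 17.1 and 242 in HFD controls (1.99, adjusted p = 0.101), with a genotype difference of 2.80 (adjusted p = 0.107). The immediate early and stress genes took 29.2% to 54.5% of the panel total in aged knockouts, 10.7% to 23.7% in HFD knockouts, 26.2% to 31.2% in aged controls and 15.5% to 30.1% in HFD controls.

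Young chow knockouts share the diet of the aged knockouts and the age of the HFD knockouts, and were placed beside both as a description. For all 29 genes that were lower in aged than in HFD knockouts, the mean log2 signal of the young chow knockouts was nearer to the HFD mean, and it lay between both means for 23 and beyond the HFD mean for 6. For the 22 higher genes it was nearer to the aged mean for 10 and nearer to the HFD mean for 12. It lay between for 12, beyond the aged mean for 5 and beyond the HFD mean for 5. Helios was at 2967, 3451 and 2001 in young chow knockouts, Foxp3 at 3001, 3417 and 3434 and ICOS at 1577, 2559 and 830, nearer to the HFD than to the aged levels on the log2 scale. Anxa1 was at 147, 248 and 367 and Cxcl2 at 570, 859 and 1083 there, above every HFD knockout and below every aged knockout. For Anxa1 this rests on 30, 59 and 42 counts at low panel totals, against 22 to 61 counts in HFD knockouts. The place of Anxa1 above the HFD knockouts is therefore uncertain. Ccr1, at 187, 92.6 and 183, was among the aged values. Il1rl1, at 6925, 2874 and 2927, was above every mouse of both knockout groups. These 3 mice had the lowest median panel total of the groups, and the aged and HFD means are shared between the placements.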

How the data were processed

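Values were deposited as nCounter signal per gene and sample, linear and not logged, with a panel sum of 100000 in 12 of 24 samples. The sources used here do not give how the authors corrected background or scaled the signal, so the unit was read from the values. Each sample has a smallest step, and 2302 of the 2304 values were whole multiples of it (within 0.02 of a count), which gave the counts and panel totals. In 2 values it was not: those of CD25 in replicate 1 and of Il1rl1 in replicate 5 of the aged knockouts.

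Signals became log2(signal + 1). All 24 samples entered a single linear model with 6 group means, fitted by limma 3.58.1 under R 4.3.3 (lmFit, contrasts.fit and eBayes) and tested on simulated data. The p values are two-sided, with Benjamini-Hochberg adjustment over 96 genes and a threshold of 0.05, and no gene or sample was left out. Each sample is 1 mouse, digested separately per the labels' protocols. Intervals for pooled counts are exact binomial.

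The members and the 15 gene lists were chosen with earlier results of these data known. Named genes were the 25 with the smallest p in the knockout comparison, 11 genes of Treg and insulin biology, up to 4 further members of each list, and those passing in the genotype difference; Gramd3, Ptafr, Rgs2, Nr1d1, Tmem176a, Mmp9, Plin2, Tcra, Cxcr6 and GzmB fall outside these and were named after their values were seen. Of the panel names, 88 matched a mouse symbol, 4 a synonym, 1 (TGFb) several and 3 (LeptinR, Perforin, Rorgt) none. For 2 genes taken by this rule, results are not reported here; they are in the counts. Alternatives were a pseudocount of 0.1 or 10, a filter on the 24 genes of lowest mean, other scalings, weights, variance priors, a replicate block, log2 total as covariate, voom on recovered counts and leaving out each mouse. Setting the non-whole values to missing, taking 6 genes out of the total and leaving out aged knockouts 1 and 6 together were chosen after seeing the data.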

Additional observations from a re-analysis of the deposited data

Results flagged for a closer look

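Single mice stood apart from the rest of their knockout group in 7 of the 70 groups of values tested, over 35 genes; chance gives about 1 in 20. Helios was 763.3 in aged knockout replicate 5, against 173.4 to 279.5 in the other aged knockouts. Lrrc32 was 15.6 in aged knockout replicate 1, against 129.9 to 312.1 in the others. HFD knockout replicate 1 was low for 3 genes: Cxcr4 at 2192, against 6225 to 8632 in the other HFD knockouts, Dgat1 at 2498, against 3814 to 4320, and Il1rl1 at 711.7, against 1713 to 2313. Lrig1 was 1933 in HFD knockout replicate 4, against 1436 to 1563 in the others. Tbet was 138.3 in HFD knockout replicate 5, against 228.7 to 278.6.

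The aged minus HFD difference itself differed between knockouts and controls, by limma's test of the difference of differences on the log2 scale, for 12 genes. It was lower in knockouts for IL-10 (-3.43), Pcsk1 (-3.12), Tbet (-2.95), Il1rl1 (-2.91), Dgat1 (-2.78), CD25 (-2.68), Tnfrsf9 (-2.44), Il10ra (-2.36), Helios (-2.19), Pdcd1 (-2.09) and ICOS (-1.73), and higher for Myadm (1.87). With 3 aged controls, these values rest on few mice.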

How the results depend on the processing

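The knockout comparison kept its count within 1.5 times of 51 in all 26 alternatives, at 47 to 58 without single mice and 66 with array weights. The control comparison ran from 27 to 36 without single mice. The genotype difference passed for 35 genes with array weights, 23 with voom and 5 to 21 without single mice, against 12; 8 passed under centring on the sample median. The cause was not tested.

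These differences of genes that did not pass changed sign. With the log2 total as covariate, InsR was at -0.0093, Irf4 at -0.033 and Perforin at -0.060. With the immediate early and stress genes out of the total, IL-10 was at 0.24, Il10ra at 0.18, GzmA at 0.27, Furin at 0.49, LeptinR at 0.10, AdipoR1 at 0.31 and Hprt at 0.062. Centred on the sample median, GzmA was at 0.034, Furin at 0.23 and AdipoR1 at 0.057, and Furin was at 0.12 when centred on reference genes. Perforin was at -0.24 with array weights, -0.22 with the replicate block and -0.45 without aged replicates 1 and 6. Without single mice, the ranges that crossed 0 were -0.029 to 1.03 for Klrg1, -0.049 to 0.34 for Irf4, -0.85 to 0.035 for GzmA, -0.31 to 0.063 for Furin, -0.22 to 0.29 for Perforin, -0.67 to 0.17 for AdipoR1 and -0.13 to 0.83 for Rorgt.

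The same replicate numbers did not pair the samples (r of -0.004, 0.047, -0.147, 0.378 and -0.16 between same-numbered aged and HFD knockouts). With the replicate block, 51 genes passed in knockouts, 24 higher and 27 lower, of which 47 were among the 51 without it; 33 passed in controls and 14 in the genotype difference. The planned quasi-likelihood count test was not run. Weak probes limit precision: InsR had 18 and 21 counts in all aged and HFD knockouts.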
